A study of Homo sapiens with 12 samples.

Results

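The genes described here encode 10 Krüppel-like factors, KLF2, KLF3, KLF4, KLF5, KLF6, KLF7, KLF9, KLF10, KLF11 and KLF13. They were taken by symbol from expression tables of 48114 genes, which list 18 KLF genes in all. RNA was sequenced from 12 libraries of 2 pancreatic ductal adenocarcinoma (PDAC) cell lines. PANC-1 cells, which the study uses as basal-like PDAC cells, were transfected with a control small interfering RNA (siCtrl), with siRNAs against the RNA-binding protein QKI (siQKI, 40 nM) or with siRNAs against the RNA-binding protein RBFOX2 (siRBFOX2, 40 nM), and were collected after 48 h. HPAF-II cells, which the study uses as classical PDAC cells, received siCtrl for 48 h. Each of the 4 groups had 3 biological replicates, which are separate samples of 1 established line, and the knockdowns are transient and partial. The knockdowns address how loss of each protein changes a basal-like cell, and the control libraries of both lines set a basal-like against a classical cell.

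KLF proteins are transcription factors with a C-terminal DNA-binding domain of zinc fingers that recognises GC-rich and CACCC elements in promoters and enhancers, and SP1 and its relatives carry the same kind of fingers. KLF2, KLF4, KLF5, KLF6 and KLF7 are known mainly as activators, KLF3 represses through the corepressor CtBP, and KLF9, KLF10, KLF11 and KLF13 can repress through the corepressor Sin3A. Several KLF genes respond within minutes to serum, stress or TGF-beta, and KLF4 and KLF5 are regulators of epithelial differentiation and proliferation in the gut and the pancreas.

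PANC-1 values are given as normalized counts, in which the authors scaled the counts of each library by its own size factor. Differences were tested with limma, on the log2 scale after adding 1, for 22544 genes whose mean over the 9 PANC-1 libraries reached 10. P-values were adjusted over all of these genes (Benjamini-Hochberg), and an adjusted p under 0.05 counted as passing. All 10 KLF genes passed this filter. The depth in fragments is unknown, and totals ranged from 226697015 to 376192091 counting units per library. Pearson's r across genes between libraries of a group lay between 0.965 and 0.973 for PANC-1 and between 0.921 and 0.938 for HPAF-II. The targeted genes were low in the libraries labelled for them, QKI at 19.7% and RBFOX2 at 13.6% of the siCtrl mean (log2 fold changes −2.34 and −2.89, adjusted p = 9.15e-13 and 4.70e-11 from limma). QKI knockdown also lowered RBFOX2 to 81.9% (adjusted p = 0.0207 from limma). All 5 markers of ductal epithelium (KRT7, KRT8, KRT18, KRT19, EPCAM) were detected in each group, at levels that differed between the lines. Of the endothelial markers PECAM1, CDH5, VWF and TEK, 0 of 4 reached a mean of 1 per 1000000 in any group.

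After QKI knockdown, 5 of the 10 KLF genes passed the test. This count was 3 under upper-quartile rescaling, without the mean-variance trend, and without siCtrl replicate 2 or 3 or siQKI replicate 2, and 2 without siQKI replicate 3. KLF4, KLF2, KLF6 and KLF13 were lower and KLF11 was higher, while 33% of all genes tested passed, 14.9% as higher and 18.1% as lower. The libraries of 5 KLF genes did not overlap between siQKI and siCtrl, beside 44.7% of all genes tested. After RBFOX2 knockdown, KLF2 and KLF4 were lower, at 56.8% and 57.1% of their siCtrl means, and none of the others passed, beside 26.5% of all genes tested, of which 14.5% were lower. KLF2 and KLF4 were lower in both knockdowns, KLF2 with a siQKI call that was lost in 7 of 18 alternatives. Of all genes tested 9.7% were lower in both, and both knockdowns were compared with the same siCtrl libraries. The median log2 fold change of the 10 genes was −0.06 after QKI knockdown and −0.02 after RBFOX2 knockdown, beside 0.03 and 0.01 over all genes tested. Among the cell type markers in PANC-1, the ductal list summed to 2129 to 2285 per 1000000 in siRBFOX2 libraries. It summed to 2547 to 2706 in the siCtrl and siQKI libraries of PANC-1. The fibroblast list, in which COL1A1 alone reached 1 per 1000000, summed to 23.2 to 27.0 in siQKI, 13.5 to 20.7 in siRBFOX2 and 11.2 to 12.7 in siCtrl libraries. The part of these markers in the KLF values was not tested. In a bulk measurement, fewer cells expressing a gene and less RNA per cell cannot be told apart.

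**Figure D1:**
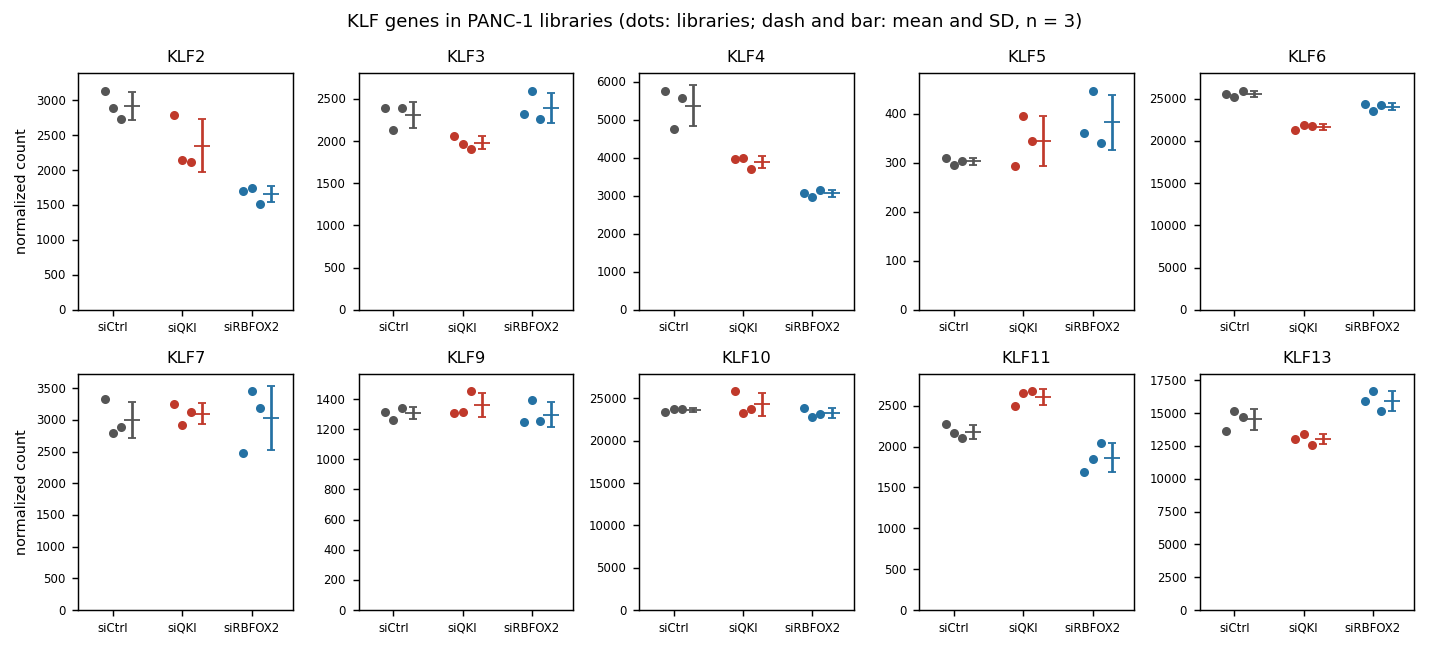
Normalized counts of the 10 KLF genes in the 9 PANC-1 libraries, with the treatment on the x axis and the count from 0 on the y axis; dots are libraries, and the dash and bar are the mean and SD (n = 3). The siRBFOX2 libraries of KLF2 (1520 to 1748) and KLF4 (2966 to 3147) lie below all libraries of the other treatments, while those of KLF7, KLF9 and KLF10 overlap the siCtrl libraries.

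KLF2, known best as a regulator of endothelial quiescence, gave 3135, 2888 and 2732 normalized counts in the siCtrl libraries. The siQKI libraries gave 2786, 2137 and 2118, and the siRBFOX2 libraries 1705, 1748 and 1520. All siRBFOX2 libraries lay below all siCtrl and all siQKI libraries, whereas siQKI replicate 1 lay within the siCtrl range. The log2 fold change was −0.82 after RBFOX2 knockdown (standard error 0.11, 95% interval −1.04 to −0.59, adjusted p = 4.77e-05 from limma) and −0.32 after QKI knockdown (standard error 0.11, adjusted p = 0.0291 from limma). The siRBFOX2 call held under all 18 alternative settings. The siQKI call was lost in 7, with an adjusted p from limma of 0.0788 after upper-quartile rescaling, of 0.111 and 0.0622 without siCtrl replicate 1 or 2 and of 0.122 and 0.126 without siQKI replicate 2 or 3.

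KLF4, a pluripotency and epithelial differentiation factor, gave 5762, 4753 and 5578 normalized counts in siCtrl cells. It gave 3964, 3991 and 3707 in siQKI cells and 3083, 2966 and 3147 in siRBFOX2 cells. The treatments did not overlap, and the order siCtrl above siQKI above siRBFOX2 held for every pair of libraries. KLF4 fell by 0.46 on the log2 scale after QKI knockdown (standard error 0.07, adjusted p = 1.96e-04 from limma) and by 0.80 after RBFOX2 knockdown (standard error 0.07, 95% interval −0.96 to −0.64, adjusted p = 1.88e-06 from limma). Both calls held under all 18 alternatives. KLF2 and KLF4 were the KLF genes that passed the test with a change of at least 1.5-fold, both after RBFOX2 knockdown, as did 5.71% of all genes tested there. After QKI knockdown 0 KLF genes reached that size and passed, beside 9.03% of all genes tested.

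The promoters of KLF2 and KLF4 are shown because both genes passed with at least a 1.5-fold change after RBFOX2 knockdown. They are RefSeq windows of 250 bases before to 50 bases after the start site (GRCh38.p14). KLF2 lies at chr19:16324576-16324875 on the plus strand and KLF4 at chr9:107489720-107490019 on the minus strand. Capitals mark GGGCGG, the GC box, on either strand and, in KLF2, the MEF2 box.
KLF2 promoter: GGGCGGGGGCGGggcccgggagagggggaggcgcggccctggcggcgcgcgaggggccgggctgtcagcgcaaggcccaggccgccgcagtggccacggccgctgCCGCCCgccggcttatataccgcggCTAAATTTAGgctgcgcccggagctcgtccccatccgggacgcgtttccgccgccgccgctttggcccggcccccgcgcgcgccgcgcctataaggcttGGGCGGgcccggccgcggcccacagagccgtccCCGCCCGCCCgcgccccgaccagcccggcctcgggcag
KLF4 promoter: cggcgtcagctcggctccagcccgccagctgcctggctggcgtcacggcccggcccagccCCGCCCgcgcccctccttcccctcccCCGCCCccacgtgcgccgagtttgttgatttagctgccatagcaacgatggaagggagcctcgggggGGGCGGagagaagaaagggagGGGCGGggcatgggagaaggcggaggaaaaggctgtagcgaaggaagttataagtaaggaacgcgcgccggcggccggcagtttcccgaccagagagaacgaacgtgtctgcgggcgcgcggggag

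The KLF2 window held 6 GC boxes, some of which overlap, and the KLF4 window held 4. At least 1 was found in 45.0% of the 35116 RefSeq windows of this length, with a median of 0. The KLF2 and KLF4 windows were rich in G and C, at 80.7% and 69%. Among members that did not change by 1.5-fold, 1 KLF11 window held 7 GC boxes and 1 KLF7 window held 4. KLF2 also held a MEF2 box, which begins 120 bases before the start site and which 0.572% of all windows hold. MEF2 factors, activated by the kinases MAP2K5 and MAPK7, are known regulators of KLF2. CACCC, found in 59.9% of all windows, was in neither the KLF2 nor the KLF4 window. Nor was a CArG box, the element bound by SRF, found in 1.29%. Both strands were searched, and a match in these letters is a description of the window only.

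The binding hexamers of the silenced proteins, ACTAAC for QKI and TGCATG for RBFOX proteins, were looked for on the sense strand of 1 GENCODE 29 transcript per gene (hg38). These are spliced transcripts. Introns, where the study also locates motifs of both proteins, were not searched. Nor were TCTAAC and GCTAAC, which the QKI motif found by the study also allows. KLF2 and KLF4 each held 1 TGCATG, both in coding sequence, and 0 ACTAAC. The RBFOX hexamer stands in 38.3% of transcripts of like length for KLF2 and in 49.2% for KLF4. The sites lie at chr19:16325615-16325620 on the plus strand and at chr9:107487167-107487172 on the minus strand, and are shown with the hexamer in capitals.
KLF2 coding site: ggcggcttcgTGCATGcgaggtcccg
KLF4 coding site: acccggttccTGCATGccagaggagc

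KLF6, a broadly expressed factor with a described tumour suppressor role, was abundant, with 25524, 25230 and 25950 normalized counts in siCtrl cells. The siQKI libraries gave 21255, 21881 and 21787 and lay below all other PANC-1 libraries. The siRBFOX2 libraries, at 24341, 23564 and 24233, lay between them and siCtrl. KLF6 fell by 0.24 on the log2 scale after QKI knockdown (standard error 0.04, adjusted p = 1.41e-04 from limma), a call that held under all 18 alternatives. After RBFOX2 knockdown its log2 fold change of −0.09 did not pass (adjusted p = 0.101 from limma), although the libraries did not overlap, as was so for 5 of the 10 KLF genes and 37.9% of all genes tested. The KLF6 transcript held 2 ACTAAC hexamers, both in the 3′ UTR, and 33.5% of transcripts of like length hold at least 1. It also held 4 TGCATG hexamers, 1 in the 5′ UTR and 3 in the 3′ UTR, and 69.1% of transcripts of like length hold at least 1. The QKI hexamers lie on the minus strand at chr10:3778396-3778401 and chr10:3777154-3777159.
KLF6 first 3′ UTR site: ggataaaaccACTAACgcttagaaac
KLF6 second 3′ UTR site: atgagcagtgACTAACgctcacataa

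KLF5 and KLF7 complete the activators. KLF5, which drives proliferation of epithelial progenitors, was the lowest of the 10 in PANC-1 cells, with 310, 295 and 305 normalized counts in siCtrl cells. It had 294, 397 and 344 in siQKI cells and 361, 447 and 340 in siRBFOX2 cells. The siRBFOX2 libraries lay above all siCtrl libraries, but neither log2 fold change passed (0.17 with adjusted p = 0.548 and 0.32 with adjusted p = 0.253, both from limma). The 95% interval after RBFOX2 knockdown ran from −0.09 to 0.74. KLF7, known from axon growth and from adipocytes, had means of 3003, 3099 and 3036 in siCtrl, siQKI and siRBFOX2 cells, with overlapping libraries. The 95% intervals of its log2 fold changes were −0.18 to 0.28 and −0.22 to 0.24.

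The CtBP-dependent repressor KLF3 gave 2396, 2136 and 2395 normalized counts in siCtrl cells. The siQKI libraries, at 2062, 1972 and 1911, lay below all of these, while the siRBFOX2 libraries, at 2326, 2597 and 2263, overlapped siCtrl. The log2 fold change of −0.22 after QKI knockdown was close to the threshold (adjusted p = 0.0570 from limma) and passed in 3 of 18 alternatives. Without siCtrl replicate 2 its adjusted p from limma was 0.0360, and without siRBFOX2 replicate 2 it was 0.0449. KLF3 overlaps an antisense gene, KLF3-AS1, over 616 bases, and strandedness of the counts is not stated. KLF3-AS1 had a mean of 32.9 normalized counts in PANC-1 cells.

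Among the Sin3A-binding factors, KLF11 and KLF13 moved and KLF9 and KLF10 did not pass. KLF11, a TGF-beta-inducible factor known from the regulation of insulin expression, gave 2273, 2169 and 2105 normalized counts in siCtrl cells. It gave 2498, 2657 and 2679 in siQKI cells and 1691, 1853 and 2047 in siRBFOX2 cells. The siQKI libraries lay above and the siRBFOX2 libraries below all siCtrl libraries. Its log2 fold change was 0.26 after QKI knockdown (standard error 0.08, adjusted p = 0.0281 from limma) and −0.23 after RBFOX2 knockdown (standard error 0.08), which did not pass (adjusted p = 0.0572 from limma). The first call was lost in 4 of 18 alternatives, those without siCtrl replicate 2 or 3 or without siQKI replicate 2 or 3, with adjusted p-values from limma of 0.0687, 0.0912, 0.0846 and 0.0898. The second passed without siRBFOX2 replicate 3 (log2 fold change −0.30, adjusted p = 0.0214 from limma) and with a mean of at least 50.

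KLF13, a factor known from chemokine expression in T lymphocytes, gave 13657, 15155 and 14714 normalized counts in siCtrl cells. It was at 13033, 13406 and 12595 in siQKI cells and at 15910, 16671 and 15120 in siRBFOX2 cells. The siQKI libraries lay below all siCtrl libraries, while siRBFOX2 replicate 3 lay within the siCtrl range. The log2 fold change was −0.16 after QKI knockdown (standard error 0.05, adjusted p = 0.0305 from limma) and 0.13 after RBFOX2 knockdown (adjusted p = 0.0754 from limma). These small changes depended on the scaling. After upper-quartile rescaling they were −0.09 (adjusted p = 0.181 from limma) and 0.16 (adjusted p = 0.0260 from limma), so that only the second passed. The siQKI call was also lost without siCtrl replicate 2 or 3 and without siQKI replicate 1 or 3, with adjusted p-values from limma of 0.129, 0.0899, 0.0642 and 0.117. The second passed without siRBFOX2 replicate 3 (adjusted p = 0.0395 from limma).

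KLF11 is the KLF gene that rose after QKI knockdown, and KLF13 the one that held the most RBFOX hexamers together with KLF6. The KLF11 transcript held 1 ACTAAC, in coding sequence at chr2:10048013-10048018 on the plus strand (29% of transcripts of like length hold 1). It also held 1 TGCATG in the 3′ UTR (63.5% of transcripts of like length hold 1). KLF13 held 0 ACTAAC and 4 TGCATG, all 4 in the 3′ UTR. The last of these lies at chr15:31377846-31377851 on the plus strand, and 80.7% of transcripts of like length hold a TGCATG. Of the 5 members that passed after QKI knockdown, KLF6 and KLF11 thus held an ACTAAC, as did KLF3 and KLF10 among those that did not pass.
KLF11 coding site: tttactcagcACTAACttggtgtcct
KLF13 3′ UTR site: ttaacgtgtaTGCATGtttagtgacg

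KLF9, a target of the glucocorticoid and thyroid hormone receptors, had means of 1306, 1360 and 1296 normalized counts in siCtrl, siQKI and siRBFOX2 cells. KLF10, a TGF-beta-inducible factor, had means of 23633, 24333 and 23256. The libraries of both genes overlapped between treatments. The 95% intervals of the KLF10 log2 fold changes, −0.05 to 0.14 and −0.12 to 0.07, were the narrowest beside those of KLF6, and those of KLF9 were −0.15 to 0.26 and −0.22 to 0.19.

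**Figure D2:**
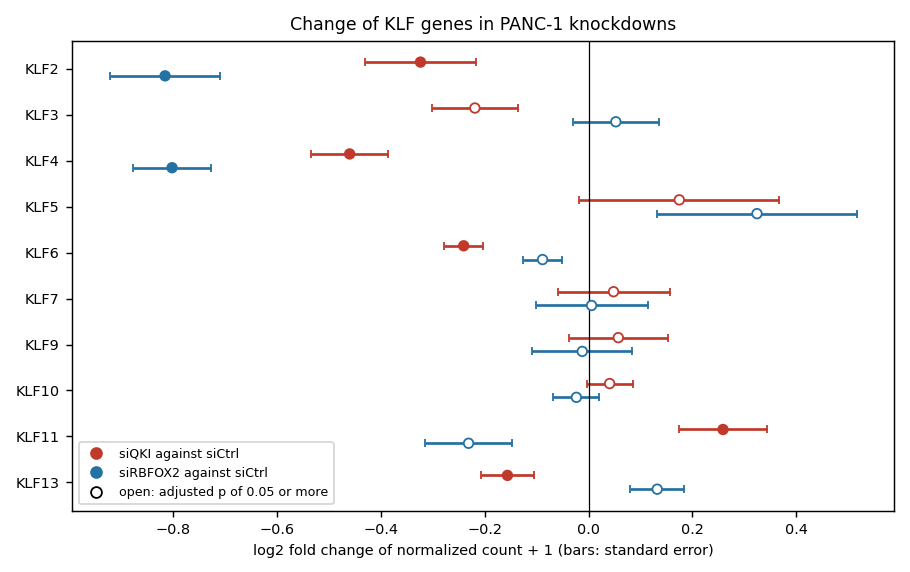
Log2 fold change of each KLF gene (x axis, on normalized count + 1) in siQKI and siRBFOX2 cells against the shared siCtrl libraries, with bars for the standard error and filled points for an adjusted p under 0.05 (limma). KLF2 and KLF4 lie furthest to the left after RBFOX2 knockdown (−0.82 and −0.80), and the signs of KLF3, KLF9, KLF10, KLF11 and KLF13 differ between the knockdowns, where only siQKI values of KLF11 and KLF13 passed among these.

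The knockdowns were also compared directly, siQKI against siRBFOX2, a difference of means that no siCtrl library enters, although the siCtrl libraries contribute to its estimate of the spread. Here 6 of the 10 KLF genes passed, 3 higher and 3 lower in siQKI cells, beside 21.5% of all genes tested, of which 9.93% were higher and 11.6% lower. The libraries of the same 6 genes did not overlap, as for 35.2% of all genes tested. None of the 6 differed by 1.5-fold, whereas 4.33% of all genes tested passed with at least that difference. KLF2, KLF11 and KLF4 were higher in siQKI cells, by 0.49, 0.49 and 0.34 on the log2 scale (adjusted p = 0.00350, 6.03e-04 and 0.00369 from limma). KLF13, KLF3 and KLF6 were lower, with log2 differences of −0.29, −0.27 and −0.15 (adjusted p = 8.40e-04, 0.0294 and 0.00834 from limma). The calls of KLF2, KLF4, KLF6, KLF11 and KLF13 held under all 18 alternatives. That of KLF3 held in 12 and was lost without siQKI replicate 2 or 3 and without siRBFOX2 replicate 1 or 2 (adjusted p = 0.0772, 0.102, 0.0501 and 0.114 from limma). For KLF11 and KLF13 this is the test of the difference between the knockdowns.

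Levels of different genes were compared per kilobase of exon after rescaling each library to 1000000, over the union of exons in GENCODE 29. In siCtrl PANC-1 cells KLF10 was highest, at 17.2 ± 0.0750 (SD, n = 3). KLF6 followed at 12.4 ± 0.269, KLF13 at 6.13 ± 0.241, KLF4 at 5.32 ± 0.594, KLF2 at 4.21 ± 0.342 and KLF11 at 1.48 ± 0.0749. The lowest were KLF3 at 1.12, KLF7 at 1.01, KLF9 at 0.734 and KLF5 at 0.235. The libraries of KLF3 and KLF7 overlapped, and those of the other neighbours in this order did not. The same first 6 genes came in the same order in both knockdowns, with KLF4 and KLF2 overlapping in siQKI cells and the sixth, KLF11, overlapping KLF3 in siRBFOX2 cells. The summed level of the 10 genes was 49.8 in siCtrl, 47.7 in siQKI and 47.0 in siRBFOX2 cells.

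Of 17 other KLF and SP genes, 11 passed the filter and 2 passed the test after QKI knockdown, where 33% of all genes tested passed, SP1 as higher (log2 fold change 0.25, adjusted p = 0.00377 from limma) and SP4 as lower (−0.33, adjusted p = 0.00428 from limma). After RBFOX2 knockdown 3 of the 11 passed, beside 26.5% of all genes tested. SP1 (0.35) and SP6 (0.59) were higher and SP4 (−0.34) was lower. SP1 and SP4 are GC-box activators with zinc fingers like those of the KLF proteins. Of the other KLF genes, 5 of 8 were tested and 0 passed after either knockdown. KLF16, the most abundant of them, had 5042 normalized counts in siCtrl cells and log2 fold changes of −0.08 and −0.18 (adjusted p = 0.385 and 0.0583 from limma). KLF17, with a siCtrl mean of only 105, had log2 fold changes of −0.96 and −0.84 (standard error 0.43). Neither passed (adjusted p = 0.106 and 0.181 from limma), although both knockdowns lay below all siCtrl libraries, as for 23% and 19.7% of all genes tested. KLF14 and KLF15 had lower siCtrl means, 45.9 and 39.2, and wider standard errors.

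Partners and regulators of KLF proteins formed a list of 26 genes. After QKI knockdown 6 were higher and 6 lower, and after RBFOX2 knockdown 2 were higher and 10 lower, with medians of −0.03 and −0.09. The shares over all genes tested were 14.9% higher and 18.1% lower, and 12% higher and 14.5% lower. After RBFOX2 knockdown 7 partner genes, in place of 12, passed in a fit with no mean-variance trend, and also when siCtrl replicate 2 or 3 was left out. The corepressor gene CTBP1, whose product binds KLF3, was higher in siQKI (0.12, adjusted p = 0.0436 from limma) and lower in siRBFOX2 cells (−0.24, adjusted p = 7.95e-04 from limma). SIN3A, which encodes the scaffold bound by KLF9, KLF10, KLF11 and KLF13, had log2 fold changes of −0.09 (adjusted p = 0.0795 from limma) and −0.13 (adjusted p = 0.0199 from limma). The acetyltransferase gene KAT2B was lower in both, at −0.36 and −0.35. Of 5 genes for ubiquitin ligases and the deubiquitinase BAP1, which act on KLF proteins, BAP1 was lower in both (−0.17 and −0.20). After RBFOX2 knockdown WWP1, a ligase for KLF5, was lower (−0.16, adjusted p = 0.0117 from limma) and SMURF1, another ligase gene, was higher (0.12, adjusted p = 0.0476 from limma).

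The upstream part of the list held 12 genes of the MAP2K5, MEF2, TGF-beta and glucocorticoid pathways. After QKI knockdown MEF2A, TGFB1, TGFBR1 and NR3C1 were higher (0.28, 0.20, 0.28 and 0.30) and MAP2K5, MEF2D and TGFBR2 were lower (−0.52, −0.45 and −0.62). After RBFOX2 knockdown TGFB1 was higher (0.22) and MEF2D, TGFBR2 and SMAD4 were lower (−0.38, −0.73 and −0.19). MEF2D and TGFBR2, the type II TGF-beta receptor gene, were thus lower in both knockdowns. The TGF-beta-inducible KLF10 did not pass in either. KLF11 was higher in siQKI cells, a call that held in 14 of 18 alternatives. Its log2 fold change of −0.23 in siRBFOX2 cells did not pass (adjusted p = 0.0572 from limma). The part of these upstream genes in the KLF values was not tested.

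Described targets of KLF factors moved both ways. Of 21 such genes 19 were tested, 6 were higher and 6 lower after QKI knockdown, and 4 were higher and 4 lower after RBFOX2 knockdown. Over all genes tested 33% and 26.5% passed. CDH1, the E-cadherin gene, rose by 1.39 and 0.53 on the log2 scale in siQKI and siRBFOX2 cells (adjusted p = 1.54e-07 and 0.00177 from limma). PDGFA, a growth factor gene, rose by 1.27 and 0.82 (adjusted p = 1.60e-07 and 2.11e-05 from limma). The cyclin gene CCND1 fell by 0.55 and 1.04 (adjusted p = 7.57e-08 and 1.89e-10 from limma), and the survivin gene BIRC5 fell by 0.58 and 0.21. CDKN1A, the cell cycle inhibitor gene that KLF4 and KLF6 are known to induce, rose by 0.36 after QKI knockdown (adjusted p = 7.05e-05 from limma). Its log2 fold change after RBFOX2 knockdown was −0.03. KRT19, a ductal keratin gene described as a KLF4 target, fell by 0.23 in siRBFOX2 cells (adjusted p = 5.95e-04 from limma).

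Immediate early genes, which respond to the same serum and stress signals as several KLF genes, had the median furthest from that of all genes among the lists. After RBFOX2 knockdown 19 of 23 were lower and 2 higher, with a median log2 fold change of −0.83 beside 0.01 over all genes tested. Of all genes tested 14.5% were lower and 12% higher there. The 2 that rose were BTG2 (0.54) and ATF3 (0.32). The log2 fold changes of EGR2, FOSB, FOS, NR4A1 and EGR1 were −2.94, −2.69, −2.37, −2.19 and −1.84. The changes of KLF2 and KLF4, −0.82 and −0.80, lay near the median of this list. The list was chosen with earlier results of these data known, and a shared response was not tested. After QKI knockdown 12 of the 23 were lower and 1 higher, with a median of −0.32. The shares over all genes tested were 18.1% lower and 14.9% higher. The largest falls after QKI knockdown were in DUSP5 (−1.09) and FOSL1 (−0.92). FOS, FOSB and NR4A1 did not pass there (adjusted p = 0.0974, 0.0718 and 0.169 from limma). In the direct comparison 14 of the 23 were higher and 4 lower in siQKI than in siRBFOX2 cells. Of all genes tested 9.93% were higher and 11.6% lower. FOS was among the higher genes, with a log2 difference of 2.05 (adjusted p = 1.20e-07 from limma).

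**Figure D3:**
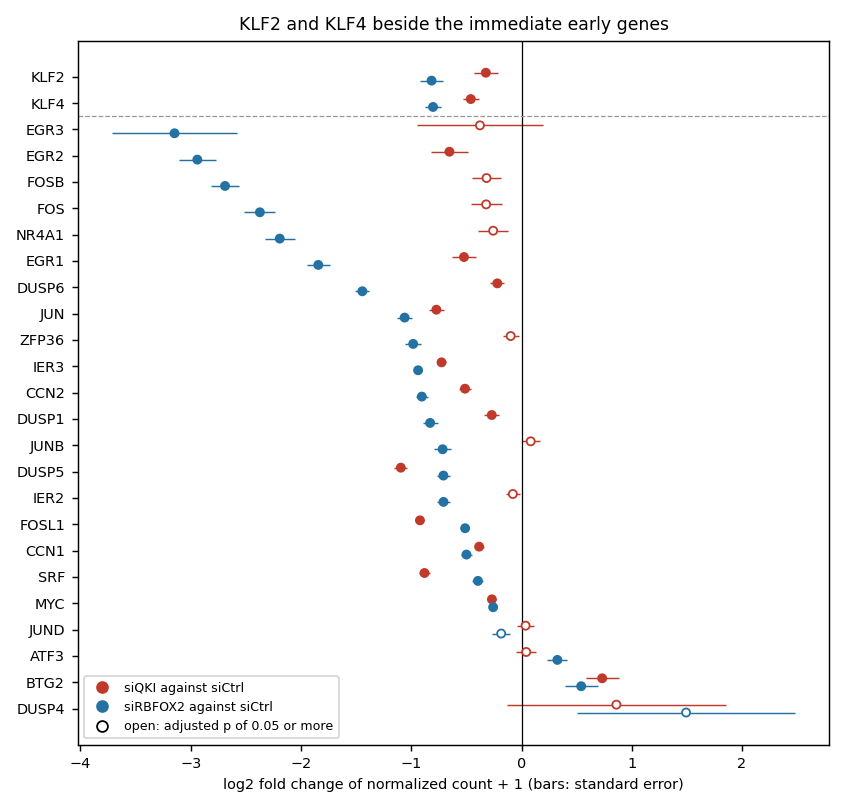
Log2 fold change (x axis, on normalized count + 1) of KLF2 and KLF4, above the dashed line, and of 23 immediate early genes below it, ordered by the change after RBFOX2 knockdown, with bars for the standard error and filled points for an adjusted p under 0.05 (limma). After RBFOX2 knockdown 19 of the 23 were lower, down to −3.15 (EGR3), beside 14.5% of all genes tested. KLF2 and KLF4 (−0.82 and −0.80) lay near the median of −0.83 of this list, which was chosen with earlier results of these data known.

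Genes with the profile closest to KLF2 or KLF4 were sought among 15231 genes with a mean of at least 50 and a symbol, by the root mean square difference of centred log2 values over the 9 PANC-1 libraries. For KLF2 they were PPM1E, a protein phosphatase gene, with a difference of 0.111, LOC102724428, named as the putative salt inducible kinase 1B gene, with 0.112, and DUSP1, a phosphatase gene of the immediate early list, with 0.115. The median over all candidates was 0.557, and the closest of 15231 genes lie below it by construction. For KLF4 they were NTSR1, the neurotensin receptor 1 gene, with 0.0797, BCL7B, a chromatin remodelling subunit gene, with 0.0831, and SNAI1, a repressor of epithelial genes, with 0.0834, beside a median of 0.570. SNAI1 had means of 2775, 1930 and 1529 normalized counts in siCtrl, siQKI and siRBFOX2 cells, and DUSP1 means of 118951, 98756 and 67131.

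The control libraries of the lines were set side by side without a test, since the tables were normalized apart. Counts were rescaled to a total of 1000000 per library. Between HPAF-II and PANC-1, 5 KLF genes differed by at least 2-fold with libraries that did not overlap, KLF5 and KLF3 higher and KLF6, KLF7 and KLF9 lower in HPAF-II. This was so for 42.7% of 24673 genes compared, 21.1% as higher and 21.6% as lower. The libraries of 8 KLF genes did not overlap between the lines, beside 63.7% of the genes compared. KLF5 and KLF7 differed by at least 10-fold, as did 15% of the genes compared. The ductal list summed to 10736 to 11688 in HPAF-II and to 2547 to 2640 in PANC-1 siCtrl libraries. All 5 of its genes were higher in HPAF-II, from KRT18, at 1813 against 859, to KRT7, at 866 against 4.16. Of the leukocyte list, 1 of 4 genes reached 1 per 1000000 in HPAF-II and 0 in PANC-1. This gene was LYZ, the lysozyme gene, at 1094 ± 60.6 (SD, n = 3) in HPAF-II and 0.0162 in PANC-1. PTPRC, the pan-leukocyte gene, was listed at 0 in all control libraries of both lines. In the fibroblast list COL1A1 was at 18.5 in HPAF-II and 11.9 in PANC-1, and the list summed to 19.0 to 21.2 in HPAF-II libraries, where 2 of its 4 genes reached 1 per 1000000. The part of these genes in the KLF values was not tested.

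KLF5 gave 545, 559 and 223 rescaled counts in the HPAF-II libraries and 0.915, 0.847 and 0.883 in the PANC-1 siCtrl libraries. Its mean was 502-fold higher in HPAF-II, a size of at least 100-fold that 4.41% of the genes compared reached in either direction. HPAF-II replicate 3 lay well below the others, and without it the ratio was 626-fold. KLF3 followed the same pattern, with 60.1, 60.6 and 29.8 in HPAF-II and 7.07, 6.13 and 6.94 in PANC-1. KLF3 was 7.47-fold higher in HPAF-II, or 8.99-fold without replicate 3. KLF4 gave 28.3, 33.5 and 27.9 in HPAF-II against 17.0, 13.7 and 16.2 in PANC-1, which is 1.91-fold higher, and KLF13 was 1.39-fold higher, at 58.4 ± 7.24 against 42.1 ± 1.66 (SD, n = 3). The libraries of these genes did not overlap between the lines, but the ratios stayed under 2-fold.

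KLF7 gave 0.613, 1.06 and 0.394 rescaled counts in HPAF-II and 9.82, 8.02 and 8.38 in PANC-1, 12.6-fold lower in HPAF-II. KLF9 gave 0.768, 0.0798 and 0.323 against 3.88, 3.63 and 3.89, 9.73-fold lower. The KLF9 ratio was 18.9-fold without HPAF-II replicate 1, 6.96-fold without replicate 2 and 8.96-fold without replicate 3. Both were the lowest of the 10 genes in HPAF-II, where their libraries also varied most relative to the mean. KLF6 was 2.86-fold lower in HPAF-II, at 26.0 ± 0.263 against 74.3 ± 1.61 (SD, n = 3), with close agreement among the libraries of each line. KLF11 was 1.17-fold lower, at 5.40 ± 0.399 against 6.34 ± 0.322, with no overlap. KLF2, at 6.85 ± 2.46 against 8.49 ± 0.691, and KLF10, at 63.2 ± 10.1 against 68.7 ± 0.300, overlapped between the lines.

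**Figure D4:**
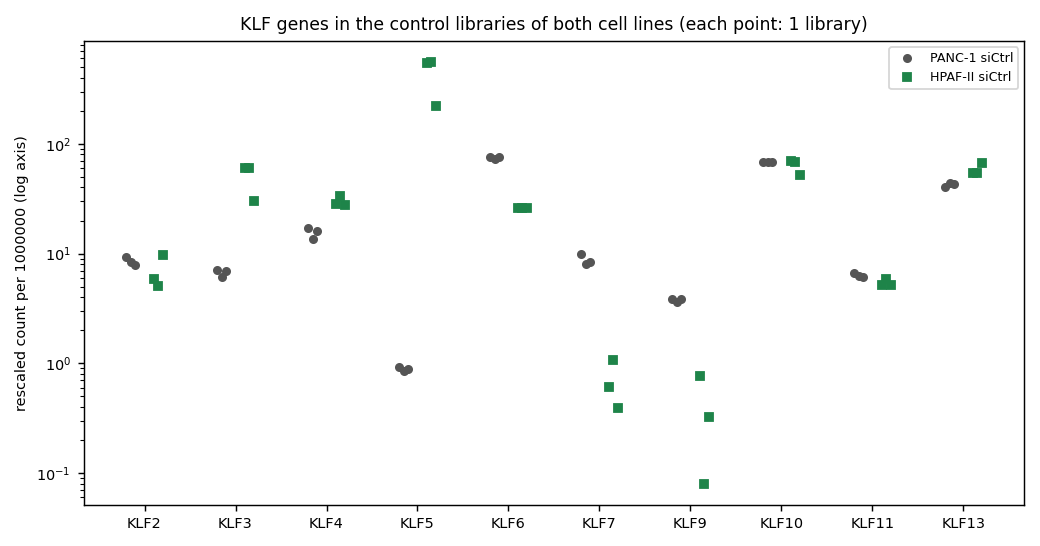
Rescaled counts per 1000000 (y axis, log scale) of the 10 KLF genes in the 3 siCtrl libraries of PANC-1 (circles) and of HPAF-II (squares). KLF5 is at 223 to 559 in HPAF-II and under 1 in PANC-1, KLF7 and KLF9 are lower in all HPAF-II libraries, and KLF2 and KLF10 overlap.

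Per kilobase of exon, KLF5 was therefore the leading KLF gene of HPAF-II cells, at 118 ± 50.7 per kilobase (SD, n = 3), and the lowest of PANC-1 cells. KLF10 came next in HPAF-II at 15.8 ± 2.53, then KLF4 at 10.2 ± 1.06, KLF13 at 8.49 ± 1.05 and KLF3 at 8.37 ± 2.94, and the last 3 overlapped as neighbours. KLF6 was at 4.35 and KLF2 at 3.40, and KLF7 and KLF9 were at 0.0800 and 0.0754. The summed level of the 10 genes was 170 in HPAF-II and 49.8 in PANC-1 siCtrl cells, of which KLF5 alone made up 118 and 0.235. Silencing QKI or RBFOX2 in PANC-1 did not bring KLF5 near the HPAF-II level, at 0.279 and 0.309 per kilobase against 0.235 in siCtrl cells.

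Among the lists, 7 of 20 described KLF targets were at least 2-fold higher and 3 lower in HPAF-II, with a median log2 ratio of 0.59 beside 0.08 over all genes compared. Of all genes compared 21.1% were higher and 21.6% lower by this criterion. The higher targets KRT4, KRT13 and ALPI rest on low values, at 1.45, 0.626 and 0.286 in HPAF-II against 0.354, 0.210 and 0.0172. So does the lower target S1PR1, at 0 against 0.639. CDH1 was at 196 ± 30.7 in HPAF-II and 2.87 ± 0.0662 in PANC-1 (SD, n = 3), and KRT19 at 2441 and 460. Of the immediate early genes 5 were higher and 11 lower in HPAF-II, with a median of −0.85, among them FOSL1, an AP-1 subunit gene, at 148 against 1547. Of the SP genes 3 of 6 were higher and 0 lower, including SP1 at 63.1 against 23.8 and SP6 at 6.93, 5.90 and 18.5 against a mean of 1.21. SP6 was 8.62-fold higher, and 5.30-fold without HPAF-II replicate 3. Of the KLF genes outside the 10, 6 were compared, 1 was higher and 4 were lower in HPAF-II, with a median log2 ratio of −2.25. Apart from KLF16, at 7.03 against 14.7, these calls rest on low values, such as KLF12 at 0.0483 against 1.94. QKI itself was 5.14-fold lower in HPAF-II, at 14.5 ± 2.76 against 74.2 ± 3.27, and RBFOX2 was 1.46-fold lower. Of the subtype markers, GATA6, of classical PDAC, was at 50.1 in HPAF-II and 1.46 in PANC-1, while VIM, of the mesenchymal state, gave 15.2, 0.283 and 0.300 in the HPAF-II libraries and a mean of 5422 in PANC-1. HPAF-II replicate 1 stood apart for VIM.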

How the data were processed

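PolyA RNA was sequenced by the authors as paired-end reads and counted per gene of the FAST DB annotation. The submitters' processing notes name hg38 and STAR 2.7.5a. The deposited signal is a count per gene scaled by DESeq2 size factors, which the authors estimated for the 9 PANC-1 and for the 3 HPAF-II libraries apart. Every value was a whole multiple of 1 step per library (within 0.01), and 82.1% to 84.8% of values of 1 to 30 steps came in multiples of 3. The steps are thus not fragments, and no count model was used. Genes that share reads with an overlapping gene are uncertain.

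The 3 PANC-1 groups were fitted together, without a block, by limma 3.58.1 under R 4.3.3 (eBayes with trend), a procedure tested on simulated data. Lines were compared on values rescaled to 1000000 with a pseudocount of 0.01. Python 3.11.15 (numpy 2.4.6, pandas 2.3.3, matplotlib 3.10.9) served for tables and plots. Promoters came from RefSeq (8 of the 10 genes matched by symbol) and transcripts from GENCODE 29, set against transcripts of like length. The genes and lists were chosen with earlier results of these data known. Genes named are the members, the lists, QKI and RBFOX2, and the 3 closest profiles of each member that changed by at least 1.5-fold. Alternatives were other pseudocounts, filters and scalings, the groups compared alone, a replicate block, no trend, and each library left out.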

Additional observations from a re-analysis of the deposited data

How the results depend on the processing

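Of 540 fold changes of single KLF genes under an alternative, 508 kept their call, 24 lost it, 8 gained it and 0 reversed. The 5 KLF genes called after QKI knockdown became 3 (1 higher, 2 lower) under upper-quartile rescaling, without the mean-variance trend, and with equal library totals, the last chosen after seeing the data. The cause was not tested. With each library left out in turn they ranged from 2 to 6, those called after RBFOX2 knockdown from 2 to 4, those that differed between the knockdowns from 5 to 6, and those that differed between the lines from 5 to 6. The fewest, 2, came without siQKI replicate 3, and 3 without siQKI replicate 2 or siCtrl replicate 2 or 3. The most after RBFOX2 knockdown, 4, came without siRBFOX2 replicate 3. The 12 partner genes called after RBFOX2 knockdown became 7 (1 higher, 6 lower) without the trend and ranged from 7 to 11 with libraries left out, with 7 without siCtrl replicate 2 or 3. Other ranges with libraries left out were 10 to 12 for partners after QKI knockdown, 2 to 3 and 2 to 4 for other KLF and SP genes after QKI and RBFOX2 knockdown, 11 to 12 and 7 to 8 for targets, 12 to 16 and 20 to 21 for immediate early genes, −2.40 to −2.29 for QKI and −3.00 to −2.76 for RBFOX2. Between the lines, deposited values without rescaling moved the median log2 ratio of all genes from 0.08 to −0.20, and 5 KLF genes still differed. Samples with the same replicate number did not deviate together (r of −0.0325 to 0.0235, 0 of 9 over 0.1, and 4 of 9 best with their own number). With a replicate block 5 KLF genes passed after QKI knockdown, 2 after RBFOX2 knockdown and 6 between the knockdowns. Of the immediate early genes, 15 (14 lower) passed with it after QKI knockdown in place of 13 (12 lower), and 22 in place of 21 after RBFOX2 knockdown. Depth in fragments is unknown, so precision comes from 3 libraries per group, and KLF5 in PANC-1 and KLF7 and KLF9 in HPAF-II rest on low values.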
